A study of Acomys cahirinus and Mus musculus with 24 samples.

Results

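Messenger RNA of 10 genes of the activin, myostatin and follistatin system was followed in unwounded and healing dorsal skin of the laboratory mouse (Mus musculus, CD-1 stock, adult) and of the spiny mouse (Acomys cahirinus, adult), a rodent known for repairing skin with little scarring. The genes were chosen by symbol, with no measured value in the rule: the ligand genes Inhba, Inhbb and Mstn, the follistatin family genes Fst, Fstl3 and Fstl1, and the receptor genes Acvr1, Acvr1b, Acvr2a and Acvr2b. All 10 were found in the count table that holds both species side by side, and all 10 were among the 14514 genes tested there. Total RNA libraries were made from unwounded skin (day 0) and from 8 mm full-thickness excisional wounds collected on day 7 and day 14. There were 4 libraries in each group, except 3 of Mus day 0, where the submitters had removed replicate 3 for poor quality. No genotype or drug was compared, and a pooled Acomys library normalized with duplex-specific nuclease was not analysed here. The labels do not say whether replicates came from separate animals, so the p-values measure the spread between these libraries, which may be technical.

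The shared table held 5980683 to 9853153 counts per Acomys library and 6714692 to 9367550 per Mus library. Levels are CPM of that table, counts scaled to a common library size with TMM factors. Changes are log2 fold changes with their standard error (SE) from 1 edgeR quasi-likelihood fit over all 6 groups, and a gene was called changed at a Benjamini-Hochberg adjusted p under 0.05 over all genes tested. Of 9 adult muscle fibre genes used as markers, the summed level was 13500 to 15600 CPM in Mus skin and 5080 to 13500 CPM in Acomys skin, so the labelled skin samples included muscle. It lay between 15.5 and 34.5 CPM in 3 Mus wound libraries (day 7 replicate 3, day 14 replicates 2 and 3), which are named the muscle-poor libraries here. Fits without them keep only replicates 1 and 4 of Mus day 14. Fewer libraries and a different muscle content therefore cannot be told apart where a call is lost that way. In these bulk samples, fewer cells of a type and less RNA per cell cannot be told apart.

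Activins are secreted dimers of inhibin beta chains, which Inhba and Inhbb encode, and myostatin (Mstn) is a related secreted protein that muscle fibres make and that restrains muscle growth. These ligands bind type II receptors (Acvr2a, Acvr2b), which recruit and phosphorylate a type I receptor such as Acvr1b, and the signal passes through Smad2 and Smad3 to the nucleus. Follistatin (Fst) and follistatin-like 3 (Fstl3) bind the ligands outside the cell and block their access to receptors, while Fstl1 is a distant family member made mainly by mesenchymal cells. Acvr1 is a type I receptor best known for bone morphogenetic protein signalling. In skin, activin A is known as a product of healing wounds, and follistatin as its antagonist.

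The activin chain genes Inhba and Inhbb encode related ends of the mature protein, which form part of its cystine knot, and the sequences show how close these members are. The last 90 coding bases before the stop codon are shown for both mouse genes (GENCODE vM21 transcripts, build GRCm38, given 5′ to 3′ along the coding strand), with codons for cysteine (TGT or TGC) in capitals.
Inhba (chr13:16027037-16027126, plus strand): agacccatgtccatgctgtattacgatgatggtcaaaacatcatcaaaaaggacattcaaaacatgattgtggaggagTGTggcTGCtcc
Inhbb (chr1:119417325-119417414, minus strand): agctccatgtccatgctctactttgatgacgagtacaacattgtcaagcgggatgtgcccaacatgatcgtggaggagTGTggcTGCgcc
Each stretch of 30 codons held 2 cysteine codons, at positions 27 and 29, and both positions were shared by the genes. Compared base by base without gaps, Inhba and Inhbb were identical at 67 of 90 bases. In the authors' deposited table of Acomys transcripts, the best mouse protein match was 98.11% identical over 424 residues for Inhba, 99.71% over 343 for Inhbb and 98.14% over 376 for Mstn. The same authors' deposited table gave 98.55% over 344 residues for Fst, 93.3% over 224 for Fstl3, 98.23% over 509 for Acvr1 and 99.61% over 513 for Acvr2a. Only short stretches were aligned for Fstl1 (56.06% identity, 60 mouse residues aligned) and Acvr1b (96.0%, 25 aligned). These do not give the identity of the whole proteins. No match is given here for Acvr2b.

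In the mouse annotation (GENCODE vM21, build GRCm38; whole genes, exons and introns) the members were spread over 7 chromosomes and were all protein coding. Inhba (chr13:16011851-16031621) and Fst (chr13:114452290-114458951) shared chromosome 13, Inhbb (chr1:119415465-119422248) and Mstn (chr1:53061640-53068079) chromosome 1, and Acvr1 (chr2:58388644-58567157) and Acvr2a (chr2:48814109-48903269) chromosome 2. Fstl3 (chr10:79777272-79782630), Fstl1 (chr16:37776873-37836514), Acvr1b (chr15:101174067-101213684) and Acvr2b (chr9:119402118-119434995) each lay alone.

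Per length, the secreted Fstl1 was the most abundant of the 10 in Mus skin. In the Mus-only table, Fstl1 stood at 115 ± 8.31 CPM per kilobase of exon (SD, n = 3) on day 0. Mstn followed at 19.5 ± 6.35, then Acvr2a at 13.6 ± 1.44 and Fst at 12.8 ± 0.63 CPM per kilobase. The Mstn libraries (15.7 to 26.8) lay above those of Acvr2a (12.7 to 15.2) and Fst (12.3 to 13.5). The SD of Mstn was wide, and differences between genes were not tested. Acvr1b (10.2 ± 0.219) and Fstl3 (7 ± 0.556) came next on this scale. Acvr1 at 3.3 ± 0.211 and Inhbb at 2.91 ± 0.622 CPM per kilobase overlapped within their spread. Acvr2b (0.997 ± 0.0884) and Inhba (0.163 ± 0.0746) were lowest. By Mus day 7 the order had changed: Inhba stood at 2.79 ± 0.809 and Inhbb at 7.07 ± 1.79 CPM per kilobase (n = 4), and Mstn was lowest at 0.13 ± 0.107.

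**Figure D1:**
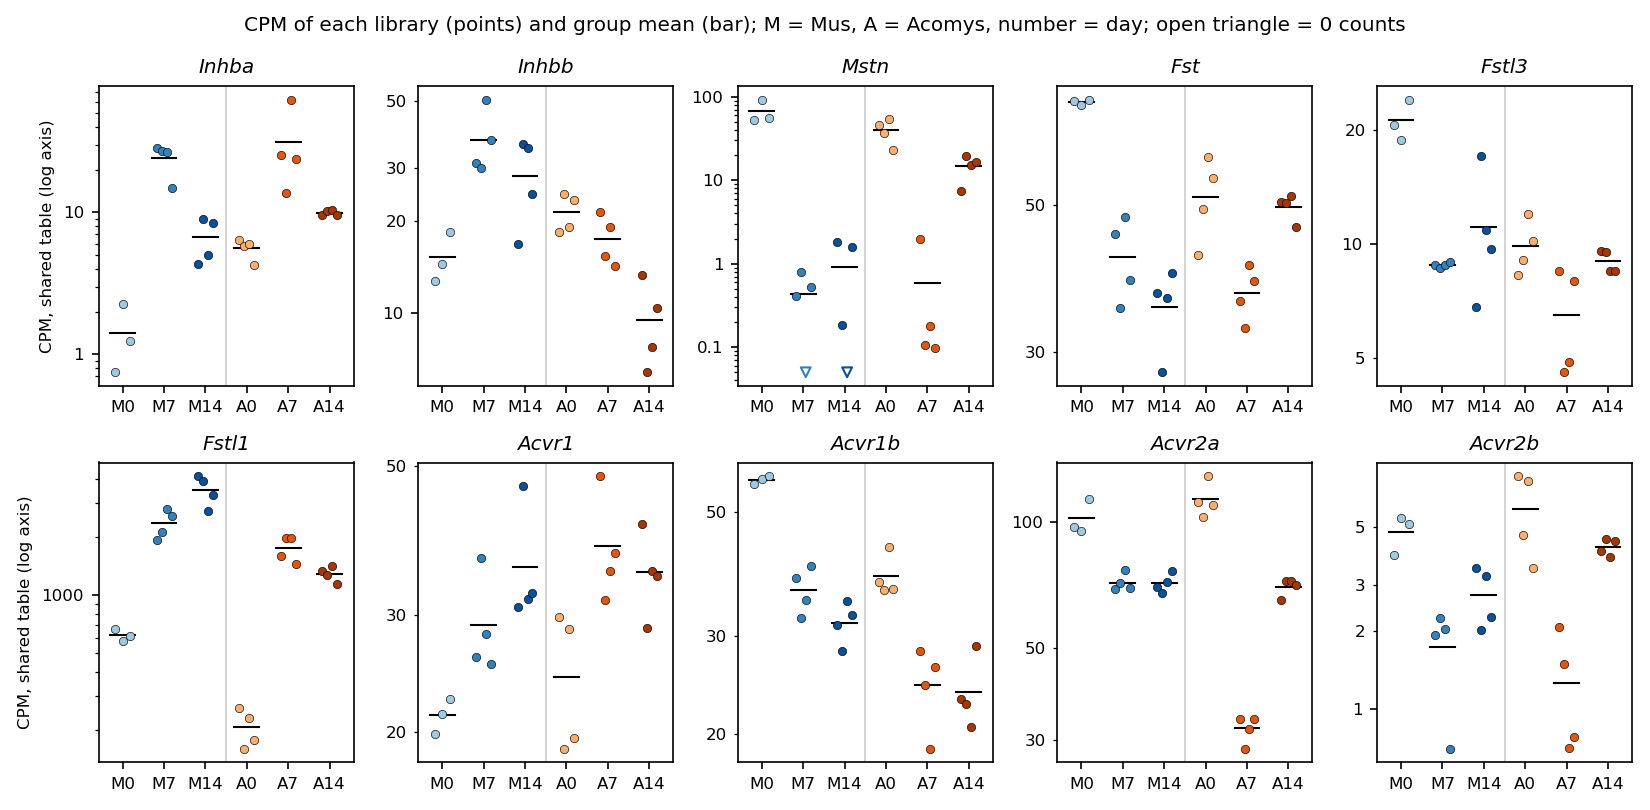
CPM of each member (log axes, different ranges) in every library of the 6 groups, with a bar at each group's mean; open triangles mark libraries with 0 counts. The day 7 libraries of both species lie low for Mstn and high for Inhba, and the Acomys day 14 libraries lie between 7.5 and 19.5 CPM for Mstn while all Mus wounds lie at or under 1.83.

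Most members differed between wounds and skin in both species, a share to be read against the large part of all genes that differed. On day 7 in Mus, 9 of 10 members changed, 3 higher and 6 lower, where 53.7% of all genes tested were called; the members' median log2 fold change was -0.58 against 0.0 over all genes. On day 14 in Mus, 9 members changed (4 higher, 5 lower) with 43.8% of all genes called. On day 7 in Acomys, 9 members changed (3 higher, 6 lower) with 61.8% of all genes called. On day 14 in Acomys, 6 members changed (2 higher, 4 lower) with 38.9% of all genes called. Between the wound days, 2 members changed in Mus (1 higher, 1 lower; 22.1% of all genes called) and 7 in Acomys (4 higher, 3 lower; 44.4% of all genes called).

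Inhba, the activin A chain, was scarce in unwounded Mus skin and rose in the wounds of both species. Its level was 0.749, 2.26 and 1.25 CPM in the 3 Mus day 0 libraries and 28.5, 27, 26.5 and 14.8 CPM on Mus day 7. On Mus day 14 it was 4.33, 8.94, 5.03 and 8.48 CPM, between the skin and the day 7 libraries and overlapping neither. In Mus, Inhba rose 16.6-fold on day 7 (log2 fold change 4.06, SE 0.493, edgeR adjusted p = 6.95e-07) and stood 4.6-fold above skin on day 14 (2.20, SE 0.523, edgeR adjusted p = 0.00178). From day 7 to day 14 it fell by 1.85 on the log2 scale in Mus (SE 0.367, edgeR adjusted p = 9.3e-04).

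Acomys skin carried more Inhba to begin with, at 6.38, 5.81, 5.99 and 4.27 CPM, above every Mus skin library. The Acomys day 7 wounds held 25.4, 13.8, 62.2 and 23.7 CPM, a wider spread than in Mus, with replicate 3 highest. The day 14 wounds held 9.56, 10.3, 10.4 and 9.59 CPM, above all Acomys skin libraries and below all day 7 libraries. The day 7 rise in Acomys was 5.58-fold (log2 2.48, SE 0.361, edgeR adjusted p = 5.09e-06), and the fall from day 7 to day 14 was significant too (log2 -1.65, SE 0.338, edgeR adjusted p = 4.71e-04). On day 14 against skin, Inhba did not pass the test in Acomys (log2 0.83, SE 0.368, edgeR adjusted p = 0.0818), although the groups did not overlap, and it passed when those 2 groups were fitted alone (edgeR adjusted p = 0.00143). It passed in none of the 8 fits with 1 library left out (edgeR adjusted p = 0.0987 to 0.185).

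The Inhba level of unwounded Acomys skin was 3.85-fold that of Mus skin (log2 1.94, SE 0.522, edgeR adjusted p = 0.00272), while on day 7 (log2 0.37, SE 0.327, edgeR adjusted p = 0.322) and day 14 (log2 0.57, SE 0.372, edgeR adjusted p = 0.174) the species did not differ beyond the test's threshold. The day 7 rise was smaller in Acomys by 1.57 log2 units (-1.57, SE 0.62, 95% interval -2.79 to -0.36), which just missed the threshold (edgeR adjusted p = 0.0534). It passed with DESeq2 (adjusted p = 0.0188), with the replicate number as a block (edgeR adjusted p = 0.0348) and without Acomys day 7 replicate 3 (log2 -2.15, edgeR adjusted p = 9.67e-04). Leaving out Acomys day 0 replicate 4, Mus day 0 replicate 2 or Mus day 7 replicate 4 also let it pass (edgeR adjusted p = 0.0485, 0.0379 and 0.0325). In all, the call changed in 4 of 15 fits with 1 library left out, and the others failed (edgeR adjusted p up to 0.147). Without the muscle-poor libraries it did not pass either (log2 -1.50, edgeR adjusted p = 0.0958).

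Inhbb, the activin B chain, rose in Mus wounds and had fallen in Acomys wounds by day 14. In Mus it stood between 12.7 and 18.5 CPM in the 3 skin libraries and at 31.1, 30.1, 50.4 and 37.1 CPM on day 7, with no overlap. On Mus day 14 it was 16.8, 36.1, 34.9 and 24.7 CPM, and replicate 1 fell back within the skin range. The rise in Mus was 2.43-fold on day 7 (log2 1.28, SE 0.264, edgeR adjusted p = 3.14e-04) and 1.83-fold on day 14 (log2 0.88, SE 0.264, edgeR adjusted p = 0.0102). The day 14 rise in Mus did not pass without the 3 muscle-poor libraries (log2 0.46, edgeR adjusted p = 0.186) or without Mus day 0 replicate 1 (log2 0.76, edgeR adjusted p = 0.0539).

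In Acomys, Inhbb stood at 18.5, 24.7, 19.1 and 23.5 CPM in skin and at 21.4, 15.4 and 19.2 CPM in day 7 replicates 1 to 3, with replicate 4 lowest, overlapping ranges with no change past the threshold (log2 -0.29, SE 0.236, 95% interval -0.75 to 0.18, edgeR adjusted p = 0.303). By day 14 it had fallen to 13.3, 6.36, 7.68 and 10.4 CPM, below every skin and day 7 library (against skin log2 -1.18, SE 0.244, edgeR adjusted p = 5.59e-04). The test of the difference between the species' changes gave -1.57 log2 units on day 7 (SE 0.353, edgeR adjusted p = 0.00155) and -2.05 on day 14 (SE 0.36, edgeR adjusted p = 2.99e-04). Without the muscle-poor libraries these differences were -1.35 (edgeR adjusted p = 0.00186) and -1.62 (edgeR adjusted p = 0.00177).

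Wound-edge keratinocyte genes are given beside Inhbb. The summed level of 5 wound-edge keratinocyte genes was 631 to 769 CPM in Mus skin, 8610 to 15600 on Mus day 7 and 2730 to 9300 on Mus day 14. In Acomys it was 153 to 312 CPM in skin, 5380 to 8020 on day 7 and 91.7 to 114 on day 14, below the skin range. By gene, 5 of 5 rose on Mus day 7, 4 of 5 on Mus day 14 and 3 of 5 on Acomys day 7, when Inhbb was not called, and 4 of 5 fell on Acomys day 14. The 5 basal keratinocyte genes summed to 4180 to 4820, 5260 to 9140 and 2720 to 6310 CPM in Mus skin, day 7 and day 14, and to 1930 to 2210, 2680 to 3570 and 936 to 1030 in Acomys. By gene, 4 of 5 fell on both Mus days and on Acomys day 14, and 3 of 5 on Acomys day 7. The part of these cells in the Inhbb result was not tested.

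Mstn was nearly absent from day 7 wounds of both species and came back by day 14 in Acomys. Mus skin held 52.9, 92.4 and 56.4 CPM of Mstn, Mus day 7 wounds 0.412, 0.8, 0 and 0.527 CPM, and Mus day 14 wounds 1.83, 0.182, 0 and 1.59 CPM. The Mus wounds rested on 0 to 12 counts per library, against 353 to 737 in Mus skin. Mstn fell by 7.29 on the log2 scale on Mus day 7 (SE 0.698, edgeR adjusted p = 3.99e-08), a level 156-fold lower, and by 6.13 on Mus day 14 (SE 0.626, edgeR adjusted p = 2.02e-07). Between the Mus wound days no change was detectable at these counts (log2 1.16, SE 1.12, edgeR adjusted p = 0.511).

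Acomys skin held 46.3, 36.4, 54.7 and 22.9 CPM of Mstn, the day 7 wounds 1.97, 0.106, 0.178 and 0.0974 CPM, and the day 14 wounds 7.5, 19.5, 15.2 and 16.6 CPM. In the day 7 wounds, 20 of the 24 Mstn counts lay in replicate 1. Mstn fell by 6.06 on Acomys day 7 (SE 0.613, edgeR adjusted p = 5.02e-08) and rose by 4.61 log2 units from day 7 to day 14 (SE 0.626, edgeR adjusted p = 6.83e-06), a 24.4-fold rise. On day 14 it was still below skin with no overlap (log2 -1.45, SE 0.424, edgeR adjusted p = 0.0101). That last call was lost in the Acomys-only table (log2 -1.35, edgeR adjusted p = 0.0793) and with DESeq2 (log2 -1.44, adjusted p = 0.14).

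Mstn was not shown to differ between the species in skin (log2 -0.75, SE 0.434, 95% interval -1.6 to 0.1, edgeR adjusted p = 0.137). On day 14 Acomys wounds held 15.3-fold more Mstn than Mus wounds (log2 3.94, SE 0.636, edgeR adjusted p = 1.64e-05). The change from skin to day 14 differed between the species by 4.69 log2 units (SE 0.78, edgeR adjusted p = 2.32e-04), and by 3.86 without the muscle-poor libraries (edgeR adjusted p = 0.00178). From day 7 to day 14 the difference of changes was 3.45 (SE 1.53, edgeR adjusted p = 0.115), and it passed without Acomys day 7 replicate 1 (log2 5.51, edgeR adjusted p = 0.0139) and with DESeq2 (log2 3.55, adjusted p = 0.0258). The call changed in 1 of 16 fits with 1 library left out. It did not pass with the replicate number as a block (edgeR adjusted p = 0.168) or without the muscle-poor libraries (edgeR adjusted p = 0.156).

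Muscle fibre genes moved with Mstn. The 9 adult muscle fibre genes summed to 758 to 1490 CPM on Acomys day 7 and to 5490 to 11700 CPM on day 14, within the Acomys skin range of 5080 to 13500. In Mus they summed to 34.5 to 3140 CPM on day 7 and to 15.5 to 6440 on day 14. In wound libraries that held muscle fibre RNA, Mstn had a lower share of it than in skin. Per 1000 counts of the muscle fibre genes there were 3.44 to 6.57 Mstn counts in Acomys skin and 3.59 to 5.92 in Mus skin, but 1.37 to 1.94 in the 4 Acomys day 14 wounds, below every skin library.

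The Mus day 14 libraries that did hold muscle fibre RNA, replicates 1 and 4, had less Mstn for it than the Acomys day 14 wounds. Mus day 14 replicate 1 reached 6440 CPM of the muscle fibre genes with 1.83 CPM of Mstn, 0.284 Mstn counts per 1000, while Acomys day 14 replicate 1 reached 5490 CPM with 7.5 CPM of Mstn, 1.37 per 1000. Mus day 14 replicate 4 gave 0.991 Mstn counts per 1000. The muscle-poor Mus day 14 replicate 2 gave 11.8 per 1000 from 1 Mstn count, above the skin range, and replicate 3 had no Mstn count. On day 7 the Mus libraries with muscle fibre RNA gave 0.201 to 0.255 per 1000, and the Acomys libraries 0.0958 to 1.33. These are counts in single libraries with 0 to 12 Mstn counts each in the Mus wounds named and 1 to 20 in the Acomys day 7 wounds, and no test was made on the ratios.

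**Figure D2:**
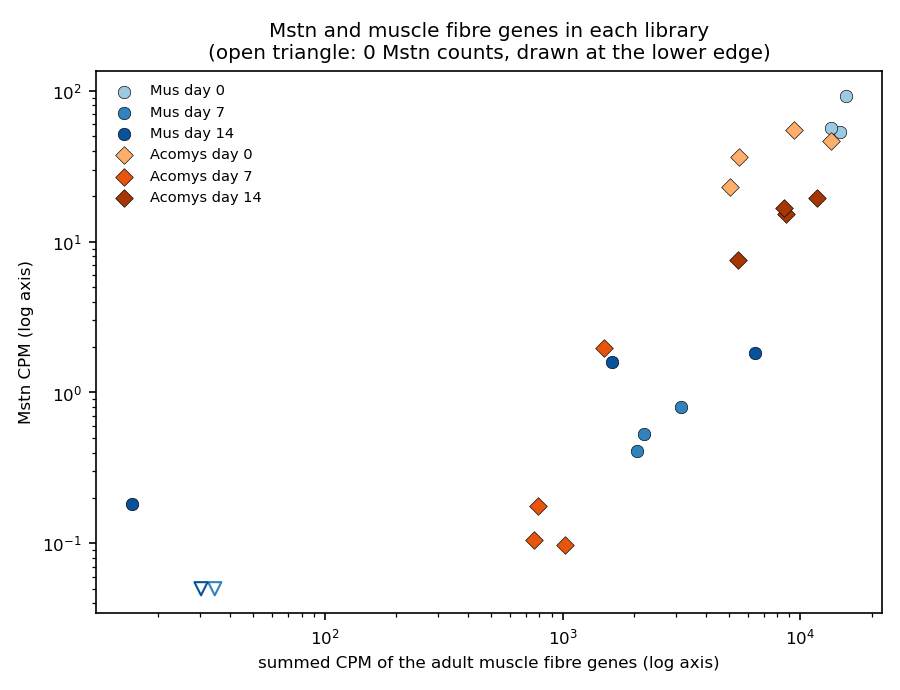
Mstn CPM against the summed CPM of the 9 adult muscle fibre genes in each of 23 libraries, both on log axes; open triangles are libraries with 0 Mstn counts. The Acomys day 14 libraries (1.37 to 1.94 Mstn counts per 1000 muscle fibre counts) lie under the skin libraries (3.44 to 6.57) at a like muscle level, and Mus day 14 replicate 1 (0.284) lies lower still.

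The summed level of myoblast genes, which mark muscle precursor cells and new fibres, rose in Acomys wounds, on day 7 too, when Mstn was lowest. The 4 of 5 listed genes in the table summed to 5.71 to 11.7 CPM in Acomys skin, 62.9 to 135 on day 7 and 146 to 232 on day 14. By gene, 2 of 4 were called higher on Acomys day 7 and 3 of 4 on Acomys day 14. In Mus the myoblast genes summed to 9.28 to 12.8 CPM in skin and 0.541 to 15.2 on day 7. On Mus day 14, with the muscle-poor replicates 2 and 3, they summed to 0.649 to 6.99 CPM. By gene, 0 of 4 were called on Mus day 7 and 2 of 4 were called lower on Mus day 14. All 4 differed between the species in their change from skin to day 14. The part of muscle cells in the Mstn result was not tested beyond the ratios above.

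Fst, the main secreted antagonist, fell in both species on day 7 and rose again by day 14 in Acomys. Mus skin held 72, 71.1 and 72.4 CPM, the day 7 wounds 45.3, 34.9, 48.1 and 38.5 CPM, and the day 14 wounds 36.8, 27.9, 36.2 and 39.5 CPM. The fall in Mus was 0.78 log2 units on day 7 (log2 -0.78, SE 0.126, edgeR adjusted p = 1.87e-05) and 1.03 on day 14 (log2 -1.03, SE 0.127, edgeR adjusted p = 1.09e-06), with no wound library reaching the skin range. Acomys skin held 42.1, 49.4, 59.2 and 55.1 CPM, the day 7 wounds 35.8, 32.6, 40.6 and 38.4 CPM, and the day 14 wounds 50.7, 50.5, 51.7 and 46.3 CPM. Acomys day 7 lay below skin (log2 -0.48, SE 0.117, edgeR adjusted p = 0.00125), and day 14 overlapped skin (log2 -0.05, SE 0.116, 95% interval -0.27 to 0.18, edgeR adjusted p = 0.789).

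From day 7 to day 14 Fst rose in Acomys (log2 0.43, SE 0.117, edgeR adjusted p = 0.00446), where Mus gave -0.25 (SE 0.12, edgeR adjusted p = 0.153). The species' changes differed by 0.98 log2 units for day 14 against skin (SE 0.172, edgeR adjusted p = 2.76e-04) and by 0.68 for day 14 against day 7 (SE 0.167, edgeR adjusted p = 0.00529). The second difference was lost without the muscle-poor libraries (log2 0.46, edgeR adjusted p = 0.0698). Mus had more Fst in skin (Acomys against Mus log2 -0.48, SE 0.125, edgeR adjusted p = 0.00185) and Acomys more on day 14 (log2 0.50, SE 0.119, edgeR adjusted p = 7.23e-04).

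Since Inhba rose where Fst fell, their count ratio moved further than either. Inhba counts per Fst count averaged 0.0198 ± 0.0109 (SD, n = 3) in Mus skin, 0.585 ± 0.163 (n = 4) on Mus day 7 and 0.198 ± 0.0914 on Mus day 14. In Acomys the ratio was 0.112 ± 0.0309 in skin, 0.82 ± 0.488 on day 7 and 0.2 ± 0.00787 on day 14, each n = 4. The day 14 means of the species were nearly equal, although Mus skin had started lower. The ratio of Inhbb to Fst counts on day 14 was 0.834 ± 0.37 in Mus and 0.191 ± 0.0637 in Acomys. The shared table kept 28.4% of the Acomys counts of Inhbb and 69.1% of those of Fst. In the species' own tables, which were normalized separately, day 14 Inhbb was 24.1 ± 2.14 CPM and Fst 44.6 ± 6.34 in Acomys, against 23.8 ± 8.23 and 28.5 ± 3.82 in Mus (SD, n = 4). These ratios are of counts, not of molecules per length, and were not tested on their own.

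**Figure D3:**
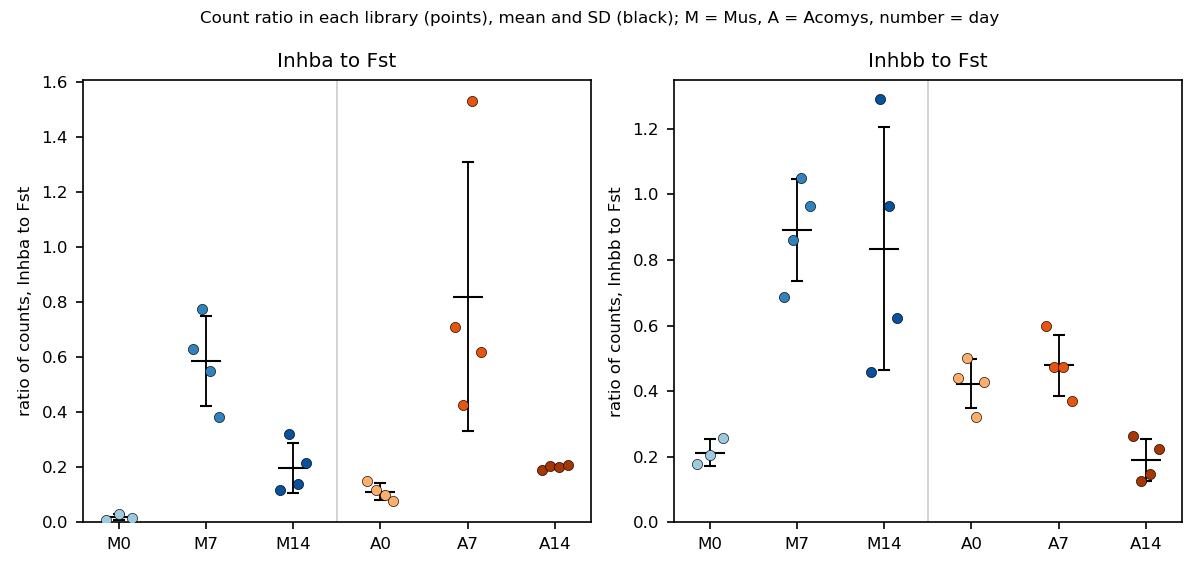
Ratio of Inhba counts (left) and Inhbb counts (right) to Fst counts in each library, with mean and SD in black; the axes start at 0. The Inhba ratio rises above the skin range in every day 7 library of Mus (0.384 to 0.775) and Acomys (0.425 to 1.53). The Inhbb ratio of Acomys day 14 (0.126 to 0.262) lies under that of Acomys skin (0.322 to 0.501).

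Fstl3, which also binds activins and myostatin, fell in Mus. It stood at 20.7, 18.9 and 24.1 CPM in Mus skin, at 8.78, 8.64, 8.78 and 8.96 CPM on day 7 and at 6.82, 17.1, 10.9 and 9.68 CPM on day 14. The Mus fall was 1.27 log2 units on day 7 (log2 -1.27, SE 0.229, edgeR adjusted p = 7.15e-05) and 0.94 on day 14 (log2 -0.94, SE 0.227, edgeR adjusted p = 0.00187). In Acomys it was 8.26, 9.09, 12 and 10.2 CPM in skin, 8.49, 4.58, 4.89 and 7.99 CPM on day 7 and 9.56, 9.54, 8.48 and 8.48 CPM on day 14. The Acomys day 7 call (log2 -0.60, SE 0.219, edgeR adjusted p = 0.0213) had overlapping groups. It was lost in the Acomys-only table (log2 -0.29, edgeR adjusted p = 0.137) and without any 1 of Acomys day 0 replicate 3, day 7 replicate 2 or day 7 replicate 3 (adjusted p = 0.0726, 0.0796 and 0.0781 in edgeR). In the shared table, which kept a smaller share of the Acomys counts of Fstl3, Mus skin held 2.15-fold more Fstl3 than Acomys skin (log2 -1.11, SE 0.224, edgeR adjusted p = 1.89e-04).

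The difference between the species in the Fstl3 change to day 14 was 0.81 log2 units (SE 0.313, edgeR adjusted p = 0.0625). It passed without the muscle-poor libraries (log2 1.23, edgeR adjusted p = 0.00654), without Mus day 14 replicate 2 (log2 1.09, edgeR adjusted p = 0.00717) and without Acomys day 0 replicate 3 (log2 0.91, edgeR adjusted p = 0.0467). The call changed in 2 of 15 fits with 1 library left out, and the others failed (edgeR adjusted p up to 0.147). With the replicate number as a block it did not pass (edgeR adjusted p = 0.0767).

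Fstl1, a secreted glycoprotein, rose in the wounds of both species. It stood at 673, 579 and 618 CPM in Mus skin, at 1950, 2140, 2810 and 2580 CPM on day 7 and at 4160, 3930, 2750 and 3310 CPM on day 14. Mus rose 3.81-fold on day 7 (log2 1.93, SE 0.186, edgeR adjusted p = 1.86e-08) and 5.67-fold on day 14 (log2 2.50, SE 0.191, edgeR adjusted p = 1.66e-09). Acomys skin held 259, 160, 230 and 178 CPM, 3.01-fold less than Mus (log2 -1.59, SE 0.175, edgeR adjusted p = 7.07e-08). Acomys wounds held 1600, 1980, 1980 and 1450 CPM on day 7 and 1340, 1280, 1420 and 1140 CPM on day 14. The Acomys rise was 8.47-fold on day 7 (log2 3.08, SE 0.175, edgeR adjusted p = 5.86e-12) and 6.27-fold on day 14 (log2 2.65, SE 0.172, edgeR adjusted p = 2.36e-10).

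The course of Fstl1 between the wound days ran in opposite directions. It rose from day 7 to day 14 in Mus (log2 0.58, SE 0.162, edgeR adjusted p = 0.0127) and fell in Acomys (log2 -0.43, SE 0.162, edgeR adjusted p = 0.0335), and the difference of those changes was -1.01 (SE 0.229, edgeR adjusted p = 0.00289). The Mus call was lost without Mus day 7 replicate 1 (log2 0.49, edgeR adjusted p = 0.0572). The Acomys call was lost in the Acomys-only table (log2 -0.41, edgeR adjusted p = 0.0943) and on leaving out any 1 of Acomys day 7 replicates 2 and 3 and day 14 replicates 1, 2 and 4 (edgeR adjusted p = 0.1, 0.0982, 0.0511, 0.0631 and 0.0983). The day 7 rise was larger in Acomys by 1.15 log2 units (SE 0.237, edgeR adjusted p = 6.97e-04), and the day 14 rise was not shown to differ (log2 0.14, SE 0.238, 95% interval -0.32 to 0.61, edgeR adjusted p = 0.705). The 7 fibroblast marker genes summed to 64400 to 69500 CPM in Mus skin, 31100 to 39000 on day 7 and 42600 to 63500 on day 14. In Acomys they summed to 7950 to 24100, 16300 to 22200 and 21900 to 38200 CPM. By gene, 2 rose and 3 fell on Mus day 7 and 4 rose on Mus day 14, and 5 and 6 rose on the Acomys days (median log2 0.23, 0.62, 0.81 and 0.98). Their part in the Fstl1 result was not tested.

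Among the receptors, the type II receptor gene Acvr2a separated the species on day 7. It stood at 97.3, 95.5 and 114 CPM in Mus skin, at 69, 71.5, 76.6 and 69.4 CPM on Mus day 7 and at 69.9, 67.7, 71.7 and 76.4 CPM on Mus day 14. Acomys held 112, 103, 129 and 110 CPM in skin, 33.8, 28.6, 31.9 and 33.7 CPM on day 7 and 64.9, 72.2, 72.4 and 70.7 CPM on day 14. The Acomys day 7 libraries thus lay under every other library of either species. The fall on day 7 was 1.82 log2 units in Acomys (log2 -1.82, SE 0.0844, edgeR adjusted p = 7.66e-13) and 0.51 in Mus (log2 -0.51, SE 0.0878, edgeR adjusted p = 4e-05). The difference of these changes was -1.31 log2 units (SE 0.122, edgeR adjusted p = 6.34e-08).

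Acvr2a then rose in Acomys from day 7 to day 14 (log2 1.13, SE 0.0833, edgeR adjusted p = 1.6e-09) and was not shown to change in Mus (SE 0.0825, 95% interval -0.17 to 0.16, edgeR adjusted p = 0.99). On day 14 no difference between the species passed (log2 -0.03, SE 0.0819, 95% interval -0.19 to 0.13, edgeR adjusted p = 0.767). Both were below their skin, Mus by 0.52 (log2 -0.52, SE 0.0879, edgeR adjusted p = 5.81e-05) and Acomys by 0.69 (log2 -0.69, SE 0.0814, edgeR adjusted p = 8.51e-07). In Acomys, adipocyte genes moved with Acvr2a: their 5 genes summed to 895 to 1420 CPM in skin, 16.4 to 36.2 on day 7 and 166 to 281 on day 14. Muscle fibre genes did so too, with 8 of 9 lower on Acomys day 7 than in skin and 8 of 9 higher on day 14 than on day 7. In Mus the adipocyte genes summed to 584 to 813, 12.8 to 53.2 and 0.649 to 77.9 CPM. All 5 were lower on both Mus days, while Acvr2a fell by 0.51 and 0.52. The part of fat or muscle cells in the Acvr2a result was not tested.

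Acvr2b, the other type II receptor gene, was far scarcer and rested on 4 to 75 counts per library of the shared table. That table kept 31.6% of its Acomys counts and 75.3% of its Mus counts. In Mus it stood at 3.89, 5.39 and 5.13 CPM in skin, 1.92, 2.24, 2.03 and 0.703 CPM on day 7 and 3.49, 2.01, 3.24 and 2.25 CPM on day 14. It fell on Mus day 7 (log2 -1.46, SE 0.359, edgeR adjusted p = 0.00165). On Mus day 14 it missed the threshold (log2 -0.81, SE 0.344, edgeR adjusted p = 0.062) and passed in the Mus-only table (log2 -0.99, edgeR adjusted p = 0.00379). In Acomys it stood at 7.84, 4.67, 7.52 and 3.48 CPM in skin, 2.07, 1.49, 0.711 and 0.78 CPM on day 7 and 4.03, 4.5, 3.84 and 4.43 CPM on day 14. It fell on Acomys day 7 (log2 -2.22, SE 0.329, edgeR adjusted p = 4.96e-06) and rose again by day 14 (day 14 against day 7 log2 1.73, SE 0.33, edgeR adjusted p = 2.06e-04). In the Acomys-only table these changes were smaller, at log2 -1.67 and 1.39 (edgeR adjusted p = 7.78e-06 and 1.48e-04).

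The type I receptor genes moved in the same direction in both species, Acvr1b lower and Acvr1 higher in wounds. Acvr1b stood at 56 to 57.9 CPM in Mus skin, 32.2 to 39.9 on day 7 and 28.1 to 34.6 on day 14, and at 36.2 to 43.3, 18.8 to 28.1 and 20.6 to 28.7 CPM in Acomys. The day 7 fall was 0.65 log2 units in each species (Mus SE 0.126, edgeR adjusted p = 1.5e-04; Acomys SE 0.118, edgeR adjusted p = 6.21e-05; difference 0.0, 95% interval -0.35 to 0.35). On day 14 it was 0.85 in Mus (log2 -0.85, edgeR adjusted p = 1.26e-05) and 0.69 in Acomys (log2 -0.69, edgeR adjusted p = 7.94e-05). In the shared table, which kept a smaller share of the Acomys counts of Acvr1b, Mus was higher than Acomys at all 3 times, by 0.57, 0.57 and 0.41 log2 units (log2 -0.57, -0.57 and -0.41, edgeR adjusted p = 3.99e-04, 2.26e-04 and 0.00399).

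Acvr1 rose in wounds, from 19.9 to 22.4 CPM in Mus skin to 25.3 to 36.5 on day 7 and 30.8 to 46.7 on day 14. The Mus day 14 rise passed (log2 0.73, SE 0.194, edgeR adjusted p = 0.00393). Mus day 7 missed the threshold (log2 0.45, SE 0.194, edgeR adjusted p = 0.0569) and passed with the replicate number as a block (edgeR adjusted p = 0.00694), in the 2 groups alone (0.0257), without Mus day 7 replicate 4 (0.0478) and in the Mus-only table (0.039). The call changed in 1 of 7 fits with 1 library left out, and the others failed (edgeR adjusted p up to 0.19). Without the muscle-poor libraries it did not pass (edgeR adjusted p = 0.0641). In Acomys, Acvr1 went from 18.9 to 29.7 CPM in skin to 31.5 to 48.3 on day 7 and 28.6 to 41 on day 14. Day 7 passed (log2 0.65, SE 0.174, edgeR adjusted p = 0.00267). The day 14 call (log2 0.52, SE 0.174, edgeR adjusted p = 0.0209) was lost on leaving out any 1 of Acomys day 0 replicates 2 and 4 and day 14 replicate 1 (edgeR adjusted p = 0.0777, 0.0758 and 0.0747).

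**Figure D4:**
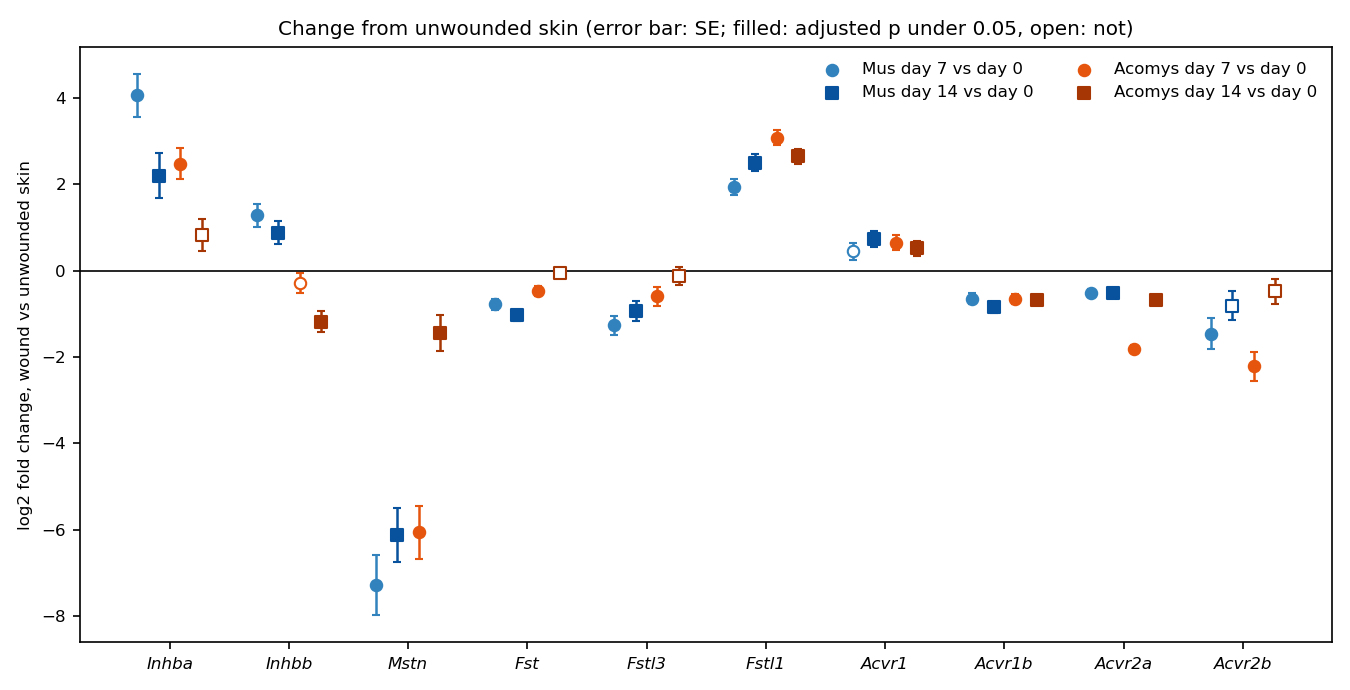
Log2 fold change of each member in wounds against unwounded skin of its own species, with SE bars; filled points passed an edgeR adjusted p of 0.05 and open points did not. Mstn reached -7.29 on Mus day 7 and stood at -1.45 on Acomys day 14, and Inhbb lies above 0 in Mus (1.28 and 0.88) and below 0 in Acomys (-0.29 and -1.18).

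The comparisons that cross the species carry a large background. In skin, 5 members differed (1 higher and 4 lower in Acomys) with 65.7% of all genes called (34.5% higher, 31.2% lower). On day 7, 5 differed (1 higher, 4 lower) with 70.9% called (35.9% and 34.9%), and on day 14, 5 differed (2 higher, 3 lower) with 72.7% called (38.1% and 34.6%). On day 7, Acomys against Mus, Fstl1 (log2 -0.44, edgeR adjusted p = 0.0199) and Acvr1 (log2 0.39, edgeR adjusted p = 0.0497) were close to the threshold. Fstl1 was lost without the muscle-poor libraries (0.0944) and without any 1 of Acomys day 7 replicates 1 and 4 and Mus day 7 replicates 3 and 4 (edgeR adjusted p = 0.0519, 0.0734, 0.0781 and 0.0534). Acvr1 was lost without the muscle-poor libraries (0.055) and without any 1 of Acomys day 7 replicates 1 and 4 and Mus day 7 replicates 1, 3 and 4 (0.205, 0.069, 0.12, 0.0898 and 0.126).

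How many counts the shared table kept bears on levels between species. For Mus members it held 64.8% to 79% of the counts of the Mus-only table, next to a median of 73.7% over all genes. For Acomys it held 28.4% for Inhbb, 31.6% for Acvr2b, 41.2% for Fstl3 and 55.3% for Acvr1b, and 66.7% to 74.4% for the other members, next to a median of 70%. In the species' own tables, normalized separately and so only set side by side, Inhbb averaged 43.2, 35.7 and 24.1 CPM in Acomys skin, day 7 and day 14, against 12.4, 30.1 and 23.8 in Mus. Fstl3 averaged 13.7, 11.2 and 12.4 against 17.1, 7.57 and 9.5, and Acvr1b 40.1, 27.6 and 26.3 against 45, 28.2 and 24.6. Acvr2b averaged 9.97, 3.13 and 8.22 CPM in Acomys against 3.92, 1.4 and 1.97 in Mus. The part of the kept shares in the Acomys levels of these genes in the shared table was not tested. Differences between the species' changes compare each species with its own skin or day 7 wounds, in the shared table only. Some Acomys changes were smaller in the Acomys-only table. Inhbb on day 14 against skin gave log2 -0.84 there and -1.18 in the shared table, and on day 7 -0.28 and -0.29. On Acomys day 7 against skin, Acvr2b gave -1.67 and -2.22, and Fstl3 -0.29 and -0.6. The part of the kept shares in the differences of change was not tested.

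In those differences of change, 3 members were called for day 7 against skin (1 higher, 2 lower) with 35.8% of all genes called (17.1% higher, 18.7% lower). For day 14 against skin, 3 were called (2 higher, 1 lower) with 25.1% called (13.1% and 12%). For day 14 against day 7, 3 were called (2 higher, 1 lower) with 22.2% called (12.7% and 9.49%). The members called were Inhbb, Fstl1 and Acvr2a in the first, Inhbb, Mstn and Fst in the second and Fst, Fstl1 and Acvr2a in the last.

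**Figure D5:**
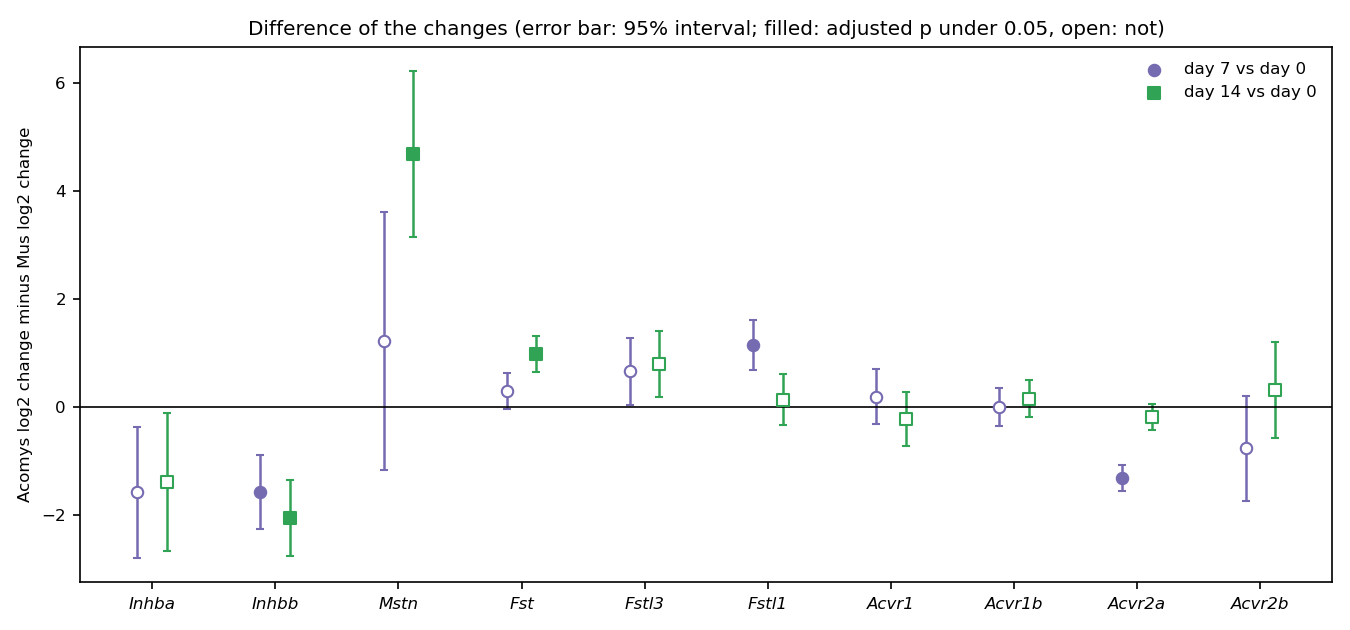
Acomys log2 change minus Mus log2 change from skin to day 7 (circles) and to day 14 (squares) for each member, with 95% intervals; filled points passed an edgeR adjusted p of 0.05. Mstn on day 14 (4.69) and Fst on day 14 (0.98) lie above 0, and Inhbb on both days (-1.57 and -2.05) and Acvr2a on day 7 (-1.31) lie below it.

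Of 46 other genes listed for the pathway, 33 were tested. In wounds against skin, 14 rose and 6 fell on Mus day 7, 13 rose and 3 fell on Mus day 14, 12 rose and 9 fell on Acomys day 7, and 13 rose and 4 fell on Acomys day 14. These counts, 20, 16, 21 and 17 of 33, stand beside the same shares of all genes called as above, which were 27% higher and 26.7% lower, 21.6% and 22.1%, 30.4% and 31.4%, and 18.9% and 20% in the same order.

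Among the other ligands, Gdf11, a close relative of Mstn, rose in Mus and not past the threshold in Acomys. It averaged 1.48 ± 0.421 CPM in Mus skin (SD, n = 3), 6.73 ± 1.75 on day 7 and 7.85 ± 0.988 on day 14, and 3.08 ± 1.51, 4.87 ± 1.71 and 4.18 ± 1.13 CPM in Acomys (n = 4). In Mus the rise was 2.18 log2 units on day 7 (SE 0.367, edgeR adjusted p = 3.36e-05) and 2.41 on day 14 (SE 0.365, edgeR adjusted p = 1.53e-05). In Acomys it was 0.64 (SE 0.295, edgeR adjusted p = 0.0649) and 0.41 (SE 0.297, edgeR adjusted p = 0.292). The changes differed by -1.54 (edgeR adjusted p = 0.0146) and -2.0 (edgeR adjusted p = 0.00376), so the Mstn relative moved the opposite way to Mstn in Mus wounds.

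Among the other receptors, Acvr1c, a type I receptor for activin B and other ligands that fat cells express, fell more than any other listed gene in the 4 wound against skin comparisons. Its mean went from 26.4 ± 3.58 CPM in Mus skin to 1.68 ± 0.568 on day 7 and 2.42 ± 2.12 on day 14, and from 98.4 ± 21.3 in Acomys skin to 3.4 ± 1.21 and 24.2 ± 4.57. The log2 changes were -3.95 and -3.37 in Mus and -4.85 and -2.02 in Acomys (edgeR adjusted p = 6.7e-08, 5.66e-07, 1.87e-10 and 1.04e-05). It rose from day 7 to day 14 in Acomys (log2 2.83, edgeR adjusted p = 8.87e-07), as the adipocyte genes above did, and the part of fat cells was not tested. Tgfbr3, a co-receptor, was called in none of the 4 (log2 0.03, 0.21, -0.15 and 0.37).

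Of 5 tested convertases and tolloid proteases, 4 rose and 1 fell on Mus day 7, 4 rose on Mus day 14, 3 rose and 1 fell on Acomys day 7, and 2 rose and 1 fell on Acomys day 14. Of 13 Smad transducers and regulators, 6 rose and 2 fell on Mus day 7 and 4 rose and 4 fell on Acomys day 7. On day 14, 5 rose and 1 fell in Mus and 6 rose and 2 fell in Acomys. Over all genes, 27% rose and 26.7% fell on Mus day 7, and 21.6% and 22.1% on Mus day 14. In Acomys these shares were 30.4% and 31.4% on day 7 and 18.9% and 20% on day 14. Pcsk5, a convertase that cleaves precursors, rose by 3.20 and 2.09 log2 units in Mus and by 3.44 and 2.48 in Acomys on days 7 and 14. Bmp1, a protease that cuts the latent myostatin complex, rose by 1.38 on both days in Mus and by 1.63 and 1.19 in Acomys. Pmepa1, a target and inhibitor of Smad signalling, rose by 2.59 and 2.93 in Mus and by 1.62 and 1.05 in Acomys, and the day 14 changes differed by -1.88 (edgeR adjusted p = 0.00107). Gdf1 fell on day 7 in Mus (log2 -1.36) and Acomys (-2.05), Pcsk6 on Mus day 7 (-1.28) and Acomys day 14 (-1.23), and Zfyve9, an anchor for receptor Smads, on Mus day 7 (-1.01) and on both days in Acomys (-1.61 and -0.92). On Mus day 14 the other falls were of Gdf1 (-0.72) and Ppm1a (-0.52).

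In the Smad group, the differences of change that were called on day 7 were all lower in Acomys. Of 13 tested Smad transducers and regulators, 7 had a lower change in Acomys than in Mus and 0 a higher one, while 18.7% of all genes were lower and 17.1% higher in this comparison. The 7 were Skil, Tgif1, Smurf1, Smad7, Smad3, Zfyve9 and Smad2. The group did not move as a whole, as the means of Smad6 and Smurf2 ran the other way without being called. From skin to day 7, Smad6 went from 5.81 to 4.2 CPM in Mus and from 6.11 to 8.05 in Acomys. Smurf2 went from 82.8 to 96.6 CPM in Mus and from 82.5 to 118 in Acomys. Skil, a repressor that Smad signalling induces, averaged 57.9 ± 4.57 CPM in Mus skin and 198 ± 18.6 on day 7, against 87.5 ± 3.83 and 122 ± 20.1 CPM in Acomys (difference of changes -1.29, SE 0.157, edgeR adjusted p = 1.93e-06). Immediate early and handling genes, 5 in the list, summed to 98.8 to 281 CPM in Mus skin and 582 to 1680 on Mus day 7, and to 73.7 to 147 and 120 to 248 in Acomys. Of these 5, 3 had a lower change in Acomys (median over the 5 of -1.98), and their part in the Smad values was not tested. Of the other listed genes that passed, the largest difference was that of the protease gene Tll1 (-1.71, edgeR adjusted p = 9.07e-06), and Dcn, encoding decorin, a proteoglycan that binds ligands of the family, had a higher change in Acomys (1.24, edgeR adjusted p = 4.29e-04), as did the type I receptor gene Tgfbr1 (0.39, edgeR adjusted p = 0.0192).

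Between the wound days, 4 of the 33 rose and 5 fell in Mus, where 9.6% and 12.5% of all genes did, and 10 rose and 8 fell in Acomys, where 22.6% and 21.8% did. In Mus, Pcsk6 (log2 1.98), Ltbp3 (0.70) and Zfyve9 (0.70) rose most, and Tgif1 (-1.68), Pcsk5 (-1.11) and Eng (-0.57) fell most. In Acomys, Acvr1c, Gdf1 (log2 2.15) and Ltbp3 (1.57) rose most, and Furin (-0.96), Pcsk5 (-0.95) and Acvrl1 (-0.62) fell most. The changes differed between the species by 2.25 for Acvr1c, 1.53 for Bambi and 1.51 for Gdf1, and by -2.64 for Pcsk6, -0.67 for Furin and -0.60 for Smurf2. In all, 8 of these differences were higher and 5 lower, next to 12.7% and 9.49% of all genes. For day 14 against skin, 3 differences were higher (Acvr1c 1.36, Smad6 1.02, Dcn 0.91) and 8 lower, led by Gdf11, Pcsk6 (-1.93) and Pmepa1. Over all genes, 13.1% were higher and 12% lower in that comparison.

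Directly between the species, 10 of the 33 were higher and 7 lower in Acomys skin, 8 and 15 on day 7, and 10 and 14 on day 14. Over all genes, 34.5% were higher and 31.2% lower in skin, 35.9% and 34.9% on day 7, and 38.1% and 34.6% on day 14. In skin, Gdf3 (log2 3.94), Acvr1c (1.90) and Gdf11 (1.08) were the highest in Acomys and Dcn (-3.11), Bmp1 (-2.09) and Tgfbr3 (-0.92) the lowest. On day 7 these places were held by Lefty1 (3.46), Gdf3 (3.41) and Inha (0.97), and by Dcn (-1.87), Bmp1 (-1.83) and Tgif1 (-1.53). On day 14 they were held by Lefty1 (4.49), Gdf3 (3.68) and Acvr1c (3.26), and by Bmp1 (-2.28), Dcn (-2.20) and Pcsk6 (-1.69). Gdf3 and Lefty1 lay near the floor in Mus, so the sizes of their differences are uncertain. In Mus skin, day 7 and day 14, Gdf3 averaged 0.183, 0.206 and 0.153 CPM and Lefty1 0.4, 0.231 and 0.0832 CPM. In Acomys they averaged 2.93, 2.17 and 2.21 CPM and 1.01, 2.65 and 2.12 CPM.

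The genes whose levels ran most like each member were found by Pearson's r of log2 levels centred within each species over the 23 libraries, which share the wound course and the depth. For Inhba they were Slc20a1 (0.968), Picalm (0.947) and Thbs1 (0.946), and for Inhbb Fabp5 (0.887), Atp11b (0.886) and Jarid2 (0.852). For Mstn they were Col4a3 (0.979), Phkb (0.969) and Prkaa2 (0.969). For Fst they were Fh1 (0.907), Eci2 (0.906) and Kdm6a (0.904), for Fstl3 Usp53 (0.865), Npnt (0.864) and Pogk (0.849), and for Fstl1 Fn1 (0.988), Pxdn (0.986) and Lhfpl2 (0.981). For Acvr1 they were Nynrin (0.935), Creb3l2 (0.927) and Carm1 (0.923), and for Acvr1b Scyl2 (0.94), Tmem63a (0.939) and Sphk2 (0.93). For Acvr2a they were Sucnr1 (0.979), Npr3 (0.974) and Ppp3ca (0.971), and for Acvr2b Pdzd2 (0.929), Yap1 (0.926) and Ubr3 (0.925).

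Among the members themselves, the same measure was highest for Mstn and Acvr2b (0.83) and for Acvr2a and Acvr2b (0.83) and lowest for Fstl1 and Acvr1b (-0.90). Mstn gave 0.82 with both Fst and Acvr2a and -0.82 with Inhba. Inhbb stood apart, with values between -0.48 and 0.46 to all other members.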

How the data were processed

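Libraries of total RNA from dorsal skin and wounds were sequenced as paired ends, per the labels' protocols. FastQC 0.11.4, Trimmomatic 0.32, RSEM 1.2.28, Bowtie2 and the build mm9 are named in the submitters' processing notes. How Acomys reads were counted per mouse symbol in the shared table is not given in the sources used here. The deposited shared table held whole-number counts of both species, and the deposited table of each species held expected counts, which were rounded. Spike-in rows (0.679% to 1.96% of counts in the shared table) were removed. Groups came from the labels, and 0 pairs of libraries were identical.

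Genes were filtered with filterByExpr, scaled by TMM and fitted once for all 6 groups with edgeR 4.0.16 (robust quasi-likelihood) in R 4.3.3, with 12 contrasts and Benjamini-Hochberg adjustment over 14514 genes at 0.05. SE and 95% intervals follow from the F statistic. The fit was tested on simulated counts. Between-gene levels used CPM per kilobase of GENCODE exons in the Mus-only table. Pearson's r used log2(CPM + 0.5). The members, the other pathway genes and the marker lists were chosen with earlier results of these data known. All members were named. Of the other pathway genes, Gdf11, Acvr1c and Tgfbr3 and up to 3 that rose and 3 that fell most per comparison were named, and for each member the 3 genes with the highest r. Outside that rule, all Smad genes called in the day 7 difference of change were named, with Smad6 and Smurf2 beside them. Alternatives were RLE factors, no filter, DESeq2 1.42.0, only the groups compared, a replicate block, a minimum fold of 2, the species tables, and leaving out the 3 muscle-poor libraries or each library in turn. Promoter and protein sequences were not used here.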

Additional observations from a re-analysis of the deposited data

Results flagged for a closer look

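In groups of 4 libraries, a lone high or low library was sought by the gap to its nearest neighbour over the group's range (limit 0.829), in 50 groups of members; chance alone gives about 1 in 20. There were 4 such libraries. Inhba in Mus day 7 replicate 4 stood at 14.8 CPM, with the others at 26.5 to 28.5. Mstn in Acomys day 7 replicate 1 stood at 1.97 CPM, with the others at 0.0974 to 0.178, and that library also had the most muscle fibre RNA of its group (1490 CPM against 758 to 1020). Acvr1 in Mus day 14 replicate 2 stood at 46.7 CPM, with the others at 30.8 to 32.3. Acvr1b in Acomys day 0 replicate 3 stood at 43.3 CPM, with the others at 36.2 to 37.4.

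The change differed between the species, by a test of the difference in edgeR, for 5 members. From skin to day 7 the Acomys change minus the Mus change was -1.57 for Inhbb, 1.15 for Fstl1 and -1.31 for Acvr2a on the log2 scale. From skin to day 14 it was -2.05 for Inhbb, 4.69 for Mstn and 0.98 for Fst. From day 7 to day 14 it was 0.68 for Fst, -1.01 for Fstl1 and 1.13 for Acvr2a.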

How the results depend on the processing

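Over all alternatives, 1978 member values were recomputed: 1843 kept direction and call, 74 lost the call (44 of them with a minimum fold of 2), 30 gained it and 31 changed sign, all of them uncalled values. No filter on low counts changed none of 120 and RLE factors 1. Counts of 0 to 20 limit Mstn in day 7 wounds and in Mus day 14 wounds, and 4 to 75 limit Acvr2b.

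With a minimum fold of 2, members called were 3, 3 and 0 in Mus (day 7 and day 14 against skin, day 14 against day 7), 5, 1 and 2 in Acomys, 1, 1 and 3 between species on days 0, 7 and 14, and 1 and 0 for the differences of change on day 7 against skin and day 14 against day 7. All genes called were then 2314, 1487 and 317 in Mus, 2761, 747 and 1332 in Acomys, 3037, 3528 and 3638 between species, and 1062, 602 and 552 for the differences. The Acomys-only table called 15541 genes on day 7, from more features. Between species on day 7, 3 members were called without the muscle-poor libraries and 3 to 5 with 1 library left out. With 1 left out, 1 to 2 were called between the Mus wound days (1 without Mus day 7 replicate 1) and 3 to 5 in the difference of change from day 7 to day 14 (5 without Acomys day 7 replicate 1). All genes called with 1 left out were 9892 to 10200 between species on day 7. They were 2307 to 3105 between the Mus wound days and 2681 to 3363 in that difference of change.

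Sign changes of uncalled log2 values were as follows; the cause was not tested. Acvr2a between the Mus wound days gave 0.007 with RLE factors, 0.008 with DESeq2, 0.087 without the muscle-poor libraries and -0.038 to 0.03 with 1 library left out. Without the muscle-poor libraries, Fstl3 gave -0.058 there and, on day 14 between species, 0.115, and Acvr1 0.134. Fst on Acomys day 14 against skin gave 0.009 in the Acomys-only table and -0.131 to 0.028 with 1 library left out. With 1 library left out, Acvr1 gave -0.218 to 0.008 and Acvr1b -0.148 to 0.036 between the Acomys wound days. Between species on day 7, Mstn gave -1.573 to 0.953 and Inhba -0.21 to 0.612, and on day 14 Acvr1 gave -0.114 to 0.135 and Acvr2a -0.053 to 0.007. In the day 7 difference of change, Acvr1b gave -0.071 to 0.113 and Mstn -0.824 to 1.701, and from day 7 to day 14 Inhba gave -0.044 to 0.778 and Fstl3 -0.031 to 0.417.

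Gained calls not given above, by edgeR adjusted p, were these. With only the groups compared, Acvr2b on Mus day 14 against skin (0.0335), Inhbb (0.0281) and Mstn (0.0382) between species in skin, Inhba (0.04) and Acvr2b (0.0347) between species on day 14 and Inhba in the day 14 difference (0.0231) passed. Without the muscle-poor libraries, Fst in the day 7 difference (0.0474) passed. Without Acomys day 7 replicate 1, Fstl3 passed between the Acomys wound days (0.0307) and between species on day 7 (0.0302), as did Acvr2b in the difference from day 7 to day 14 (0.0399). Fstl3 also passed on day 7 without Acomys day 7 replicate 4 (0.0485) and on day 14 without Mus day 14 replicate 1 (0.0498), and Acvr2a in skin without Mus day 0 replicate 4 (0.0414).

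The replicate number as a block was fitted within species and for the differences; between species it could not be fitted, as numbers are nested in species. It changed 2 of 90 member values, both gained (Acvr1 on Mus day 7, Inhba in the day 7 difference), and called 10 members on Mus day 7 and 4 in the day 7 difference. Over all genes it also called more, 7961 and 5515 in these comparisons against 7788 and 5193 of 14514 in the main fit. Same-numbered libraries deviated together in the shared table at r = 0.088 to 0.108 (Mus day 0 and 7) and 0.066 to 0.148 (Mus day 0 and 14), where 3 of 3 fitted best with their own number, at -0.015 to 0.602 between Mus day 7 and 14, and at -0.167 to 0.359 between Acomys day 0 and 14. Not every pair was over 0.1 in the shared table, so the block stayed an alternative there. In the Mus-only table, where no block was fitted, the first 2 pairs of groups gave 0.147 to 0.161 and 0.115 to 0.207, all over 0.1, and day 7 and 14 gave 0.017 to 0.618.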

Other observations

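Adipocyte genes and Acvr1c fell in the same comparisons. The 5 adipocyte genes were all lower on day 7 and day 14 in Mus and on day 7 in Acomys, and 4 of 5 were lower on day 14 in Acomys. From day 7 to day 14, 4 of 5 rose in Acomys, in edgeR, and the changes of 4 differed between the species. Macrophage genes summed to 1020 to 1180 CPM in Mus skin 1890 to 2790 on day 7 and 1920 to 2500 on day 14, and to 230 to 506 CPM in Acomys skin, 1590 to 2620 on day 7 and 702 to 1000 on day 14. Neutrophil genes summed to 1520 to 3930 CPM on Mus day 7 and 1610 to 2450 on Acomys day 7, and to 150 to 401 and 35.4 to 80.6 CPM on day 14. In skin the neutrophil genes summed to 37 to 50 CPM in Mus and 15.2 to 21.5 in Acomys. Their part in the Inhba values was not tested.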
